A study of Mus musculus with 4 samples.

Results

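The tumour necrosis factor (TNF) ligand superfamily and the TNF receptor superfamily were examined in cultured mouse keratinocytes. The members were genes whose symbol is Tnfsf or Tnfrsf followed by a number, together with Tnf, Lta, Ltb, Ltbr, Fas, Fasl, Cd40, Cd40lg, Cd27, Cd70, Eda, Edar, Eda2r and Ngfr. A gene counted as measured where a row of the deposited table carried its symbol alone, and the brightest row by the mean of the 4 arrays stood for it. This gave 42 members, 16 ligands and 26 receptors, of 30140 genes.

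The study set Glut1-deficient keratinocytes (KO) against wild-type keratinocytes (WT), with 2 arrays per genotype. Glut1, the product of Slc2a1, is a glucose transporter of the plasma membrane. Per the labels, primary cells were taken at 1 week of age from C57BL/6J mice, 4 per genotype, and the KO mice lacked Glut1 specifically in keratinocytes. Neither the Cre line nor the deleted part of the gene is given in the sources used here. Cells of both genotypes grew in the same keratinocyte medium with 0.05 mM CaCl2 and 5 ng/ml EGF. It also held 0.05 µg/ml hydrocortisone, 7.5 µg/ml pituitary extract and 0.5 µg/ml insulin. The cells were reseeded at 2000000 cells after 3 days and were harvested the next day. Each array held RNA from 2 plates of 1 genotype combined at random, so each of the 2 arrays is a pool of animals. The p-values measure the spread between these pools, part of which may be technical.

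TNF ligands are mostly trimeric membrane proteins, some of which are shed by metalloproteinases, and they cluster their receptors on the target cell. Receptors with a death domain in their tail can recruit caspases or the necroptosis machinery. The others bind TRAF adaptors and drive NF-kB and MAP kinase signalling, and decoy receptors bind a ligand without a full signal. In skin, TNF is an inflammatory cytokine made by keratinocytes and leukocytes, and the ectodysplasin branch directs the formation of hair and other skin appendages.

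Slc2a1 gave log2 signals of 12.09 and 12.01 in KO keratinocytes, against 13.26 and 13.40 in WT keratinocytes. The difference of KO minus WT was -1.28 on the log2 scale (SE 0.10, adjusted p 0.00754, limma with Benjamini-Hochberg adjustment over all 30604 rows with 1 symbol). The adjusted p was 0.0508 without the first KO array, at a difference of -1.32. Arrays correlated at 0.997 within KO and 0.998 within WT, and at 0.989 to 0.992 between the genotypes. All 10 keratinocyte markers, Krt5 and Krt14 among them, lay above the background floor on at least 1 array. All 10 were without overlap between the genotypes, against 49.7% of all genes, with 7 lower and 3 higher in KO. Of these, Col17a1, a hemidesmosomal collagen, fell by 0.86 (adjusted p 0.0181), and Dsg3, a desmosomal cadherin, rose by 0.92 (adjusted p 0.0157). Krt5 differed by -0.51 (adjusted p 0.0994) and Krt14 by -0.43 (adjusted p 0.122). The part of these shifts in the members' differences was not tested. That floor is the 95th percentile of the background control rows on each array and lay at 4.87 and 4.63 in KO and at 4.36 and 4.70 in WT. A row at or below it carries no measured level, and levels of different genes are not compared, since each has its own probes.

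Of the 42 members, 6 passed an adjusted p of 0.05, 5 higher and 1 lower in KO keratinocytes. The share was 14.3% of members, where 7.25% of all 30140 genes passed, 4.12% higher and 3.13% lower. The 5 higher members were receptors and the 1 lower member was a ligand. Among ligands 0 of 16 were higher and 1 of 16 lower, with 0 higher and 4 lower at an unadjusted p under 0.05. Among receptors 5 of 26 were higher and 0 lower, with 8 higher and 2 lower at an unadjusted p under 0.05. Of all genes, 11.6% were higher and 10.5% lower at that unadjusted level. The median log2 difference was -0.04 over the ligands, 0.04 over the receptors and -0.01 over all genes. The genotypes did not overlap for 22 of the 42 members, 11 in each direction, which is 52.4% against 49.7% of all genes (23.9% higher and 25.9% lower).

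Most ligands lay at background, and most receptors lay above it. On at least 1 array, 5 of 16 ligands and 21 of 26 receptors lay above the floor, as did 55.6% of all genes. On all 4 arrays, 4 ligands and 14 receptors did so, as did 14006 of all 30140 genes. The floor rests on 23 background rows per array. The 11 ligands at or below the floor on every array were Cd40lg, Cd70, Fasl, Lta, Ltb, Tnfsf10, Tnfsf11, Tnfsf13b, Tnfsf18, Tnfsf4 and Tnfsf8, with log2 signals of 2.80 to 4.31. Read against the genes above the floor on at least 1 array, of which 12.9% passed the test, 7.33% higher and 5.56% lower, the members called are 6 of 26.

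**Figure D1:**
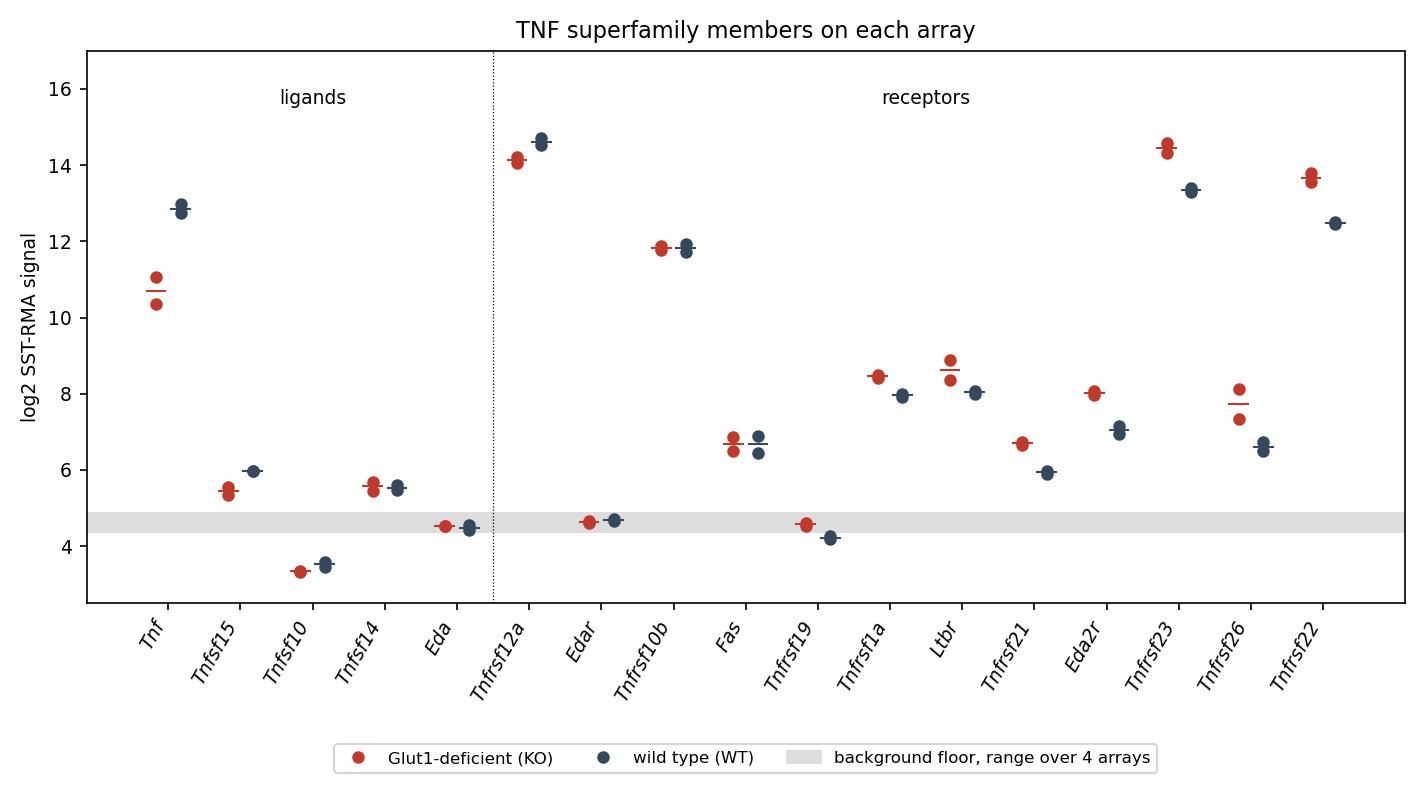
The log2 SST-RMA signal of the named members on each array, KO left of WT, with ligands left of the dotted line; bars are means of 2 arrays and the grey band is the range of the floor over the 4 arrays. Tnf lay at 10.35 and 11.07 in KO and at 12.97 and 12.74 in WT, while Tnfrsf22 and Tnfrsf23 lay higher in KO.

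Tnf was the ligand with the largest change. Its log2 signal was 10.35 and 11.07 in KO keratinocytes, against 12.97 and 12.74 in WT keratinocytes, and the genotypes did not overlap. The difference was -2.15 (SE 0.25, adjusted p 0.0164), which is 4.43-fold lower in KO, and it ranked 50 among all genes ordered from the largest fall. Without the first WT array the adjusted p was 0.0590 at a difference of -2.03, and over all alternatives it ran from 0.00867 to 0.0900.

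Leukocytes are another source of TNF in skin, and their markers were mostly at background. Of 7 T cell markers measured, 6 lay at or below the floor on all 4 arrays, Cd3e, Cd3d, Cd3g and Ptprc among them. Over all 7, the summed linear signal was 122 and 120.2 in KO against 115 and 124 in WT. The remaining T cell marker, Thy1, had 4.99 and 5.06 in KO and 4.66 and 4.66 in WT, a difference of 0.37 (adjusted p 0.0891). Of 8 macrophage and monocyte markers, 6 were at or below the floor on all 4 arrays, including Csf1r, Adgre1 and Tyrobp. Sums over all 8 were 786 and 1333 in KO against 488 and 542 in WT, set mostly by the other 2, Cd68 and Cd14. Cd68, a lysosomal protein, gave 9.30 and 10.20 in KO against 7.76 and 7.85 in WT, higher by 1.95 (adjusted p 0.0268). Cd14, a co-receptor for bacterial lipopolysaccharide, fell by 1.38 (adjusted p 0.0088). Of 7 Langerhans and dendritic cell markers, 4 were at or below the floor, Cd207 among them. Cd83 had a difference of 0.62 (adjusted p 0.176) and H2-Ab1 one of -0.26 (adjusted p 0.226). Epcam, which keratinocytes also make, set the sum of that list, 59420 and 56693 in KO against 109633 and 98115 in WT.

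The genes next to Tnf lay at background. Per RefSeq, Tnf lies between Ltb and Lta on chromosome 17, and the lymphotoxins these encode are cytokines of lymphocytes. Ltb gave 3.81 and 3.79 in KO against 3.78 and 3.72 in WT, and Lta 3.71 and 3.55 in KO against 3.62 and 3.64 in WT. Both lay at or below the floor on every array, so no change can be read from them.

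The 250 bases before the RefSeq start are shown for Tnf and for the called receptors Tnfrsf23 and Eda2r because these are the 3 called members whose window holds the TATA-box letters TATAAA. Capitals mark that match, which in Tnfrsf23 reads on the opposite strand. All 3 genes lie on the minus strand of GRCm38.p6, at chr17:35202008-35202257, chr7:143685876-143686125 and chrX:97377210-97377459, and each sequence runs 5′ to 3′ along the gene.
Tnf: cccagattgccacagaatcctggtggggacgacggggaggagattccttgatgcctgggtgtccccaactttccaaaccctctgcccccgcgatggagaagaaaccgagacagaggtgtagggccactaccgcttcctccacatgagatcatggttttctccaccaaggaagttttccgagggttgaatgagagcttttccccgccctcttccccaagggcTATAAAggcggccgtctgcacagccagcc
Tnfrsf23: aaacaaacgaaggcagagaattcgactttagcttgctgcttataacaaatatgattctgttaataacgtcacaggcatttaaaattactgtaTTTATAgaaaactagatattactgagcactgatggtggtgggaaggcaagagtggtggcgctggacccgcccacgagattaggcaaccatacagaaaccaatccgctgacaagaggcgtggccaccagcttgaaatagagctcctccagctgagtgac
Eda2r: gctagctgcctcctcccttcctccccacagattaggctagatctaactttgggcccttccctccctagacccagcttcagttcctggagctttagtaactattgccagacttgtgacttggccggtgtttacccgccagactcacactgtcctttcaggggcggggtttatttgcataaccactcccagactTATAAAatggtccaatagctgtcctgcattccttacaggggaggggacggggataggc

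Counted from the start, with the base before it as -1, the match spans -29 to -24 in Tnf, -58 to -53 in Eda2r and -158 to -153 in Tnfrsf23. Across all promoters of the table, 12.4% of 32851 windows held TATAAA on either strand, against 7 of 37 windows of members (18.9%). RefSeq windows were at hand for 33 of the 42 members and 5 of the 6 called ones. The kappa-B consensus, the binding site of NF-kB, matched 3 of 37 member windows (8.11%), those of Ltb, Tnfrsf8 and Tnfrsf9, against 3.9% of all windows. TGANTCA, the AP-1 motif, matched 5 of 37 (13.5%), those of Fas, Tnfrsf8, Tnfrsf9, Tnfsf13b and Tnfsf14, against 6.75%. TGATGNAA, the composite C/EBP-ATF motif, matched 0 of 37, against 3.45%. None of the last 3 motifs was found in the 5 called windows. A match describes letters within this window only.

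The other ligands above the floor on all 4 arrays were Tnfsf14, Tnfsf15 and Tnfsf9, and none of them passed the test. Tnfsf15, a ligand of the death-domain receptor Tnfrsf25, gave 5.33 and 5.55 in KO against 5.98 and 5.96 in WT, with no overlap. Its difference was -0.53 (SE 0.11, adjusted p 0.0609). Tnfsf9, a costimulatory ligand of T cells given here after its values were seen, had 5.42 and 5.16 in KO and 5.64 and 5.86 in WT, a difference of -0.46 (adjusted p 0.136). Tnfsf14, a ligand of the lymphotoxin beta receptor, gave 5.70 and 5.44 in KO and 5.46 and 5.60 in WT, and the genotypes overlapped. Its difference was 0.04, with an interval of -0.29 to 0.36. The median over the 5 ligands above the floor on at least 1 array was -0.46. Tnfsf10, which encodes the death ligand TRAIL, lay at or below the floor on every array, with 3.33 and 3.36 in KO and 3.45 and 3.59 in WT.

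The largest rises among the receptors were in the decoy group. Tnfrsf22 and Tnfrsf23 are mouse receptors that bind TRAIL without a death domain. Tnfrsf22 gave 13.78 and 13.54 in KO keratinocytes, against 12.45 and 12.50 in WT keratinocytes. The difference was 1.19 (SE 0.12, adjusted p 0.0118), or 2.28-fold higher in KO. Tnfrsf23 gave 14.57 and 14.33 in KO against 13.30 and 13.40 in WT, a difference of 1.10 (SE 0.12, adjusted p 0.0146), or 2.14-fold higher. For both genes each KO array lay above each WT array.

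Tnfrsf26, which the grouping used here also counts as a decoy, had the same direction without passing the test. It gave 7.35 and 8.11 in KO against 6.74 and 6.49 in WT, with no overlap, and the difference was 1.12 (SE 0.27, adjusted p 0.0755). The adjusted p was 0.0468 when only rows at or above the median mean were tested. Tnfrsf11b, the soluble decoy osteoprotegerin, given here after its values were seen, had 6.51 and 6.16 in KO and 6.50 and 6.07 in WT, a difference of 0.05 with an interval of -0.44 to 0.54. The median of these 4 decoy or soluble receptors was 1.11.

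The calls for both decoy receptors were lost when some of the arrays were left out. Leaving out any 1 array also lowered the number of calls over the whole table. For Tnfrsf22 the adjusted p was 0.0541 without the first KO array and 0.0559 without the first WT array, and over all alternatives it ran from 0.00809 to 0.0784. For Tnfrsf23 it was 0.0609 without the first KO array, 0.0687 without the first WT array and 0.0521 without the second WT array, with a full range of 0.0100 to 0.0885. The log2 differences without 1 array stayed between 1.07 and 1.31 for Tnfrsf22 and between 0.97 and 1.22 for Tnfrsf23. The sequences of the array's probes are not used here, and whether RNA of one of these related genes binds probes of another was not tested.

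Per RefSeq, Tnfrsf26, Tnfrsf22 and Tnfrsf23 are consecutive protein-coding genes of chromosome 7. Those of the 6 coding genes on either side that had a row were read from the same fit, a window chosen after the values were seen. On one side Cars, which encodes a cysteinyl-tRNA synthetase, was higher by 0.88 in KO (adjusted p 0.0387). Phlda2, a growth-restraining imprinted gene, was higher by 0.99 (adjusted p 0.0125). Cdkn1c, an imprinted cyclin-dependent kinase inhibitor, was higher by 0.73 (adjusted p 0.0208). Between these, Nap1l4 had a difference of -0.13 (adjusted p 0.596) and Slc22a18 one of 0.46 (adjusted p 0.0696), and Kcnq1, the farthest on that side, lay at or below the floor on all arrays. On the other side Osbpl5 had a difference of 0.36 (adjusted p 0.291), and the measured genes beyond it lay between -0.14 and 0.20. The rises thus covered some of the neighbours and not others. None of the measured flanking genes of Tnf passed the test.

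**Figure D2:**
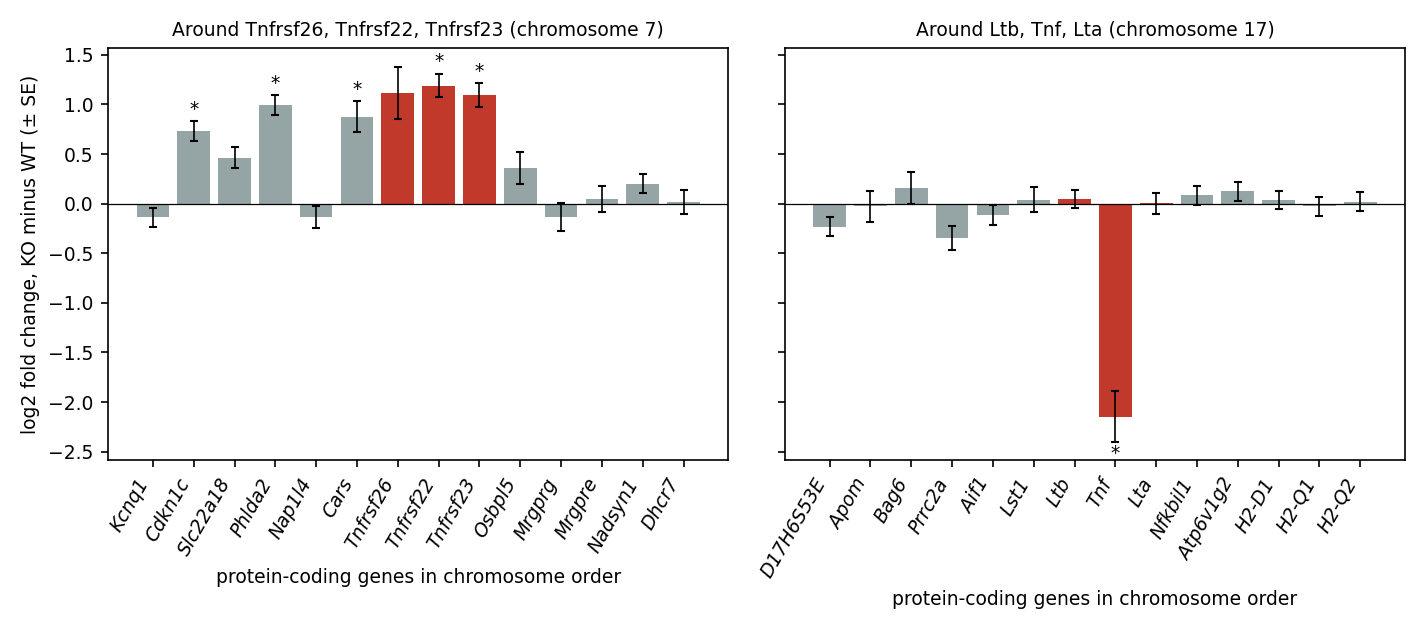
Log2 difference, KO minus WT, of the protein-coding genes around the Tnfrsf26, Tnfrsf22 and Tnfrsf23 cluster of chromosome 7 and around Tnf on chromosome 17, in RefSeq order and not to genomic scale; error bars are the SE, asterisks mark an adjusted p under 0.05 and red marks members. Phlda2, Cars, Tnfrsf22 and Tnfrsf23 are among the genes above 0.8, while Tnf lies at -2.15; its neighbours lie between -0.35 and 0.16, some of them at the floor.

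Among the 7 death-domain receptors 2 were higher and 0 lower, where 4.12% of all genes were higher and 3.13% lower. The median of the 7 was -0.00. Tnfrsf21, a receptor best known from neurons and lymphocytes, gave 6.66 and 6.74 in KO against 5.90 and 5.99 in WT. The difference was 0.76 (SE 0.10, adjusted p 0.0192), or 1.69-fold higher, and the genotypes did not overlap. Its adjusted p was above the threshold without any 1 array, between 0.0627 and 0.107, and over all alternatives it ran from 0.0131 to 0.107. Tnfrsf1a, the main receptor for soluble TNF, gave 8.50 and 8.42 in KO against 7.92 and 7.99 in WT. The difference was 0.50 (SE 0.10, adjusted p 0.0464), or 1.42-fold higher. The call of Tnfrsf1a was lost in 8 of 12 alternatives and with crossed replicate pairs, with adjusted p of 0.0895 to 0.231 without 1 array.

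The other death-domain receptors did not pass the test. Tnfrsf10b, the mouse death receptor for TRAIL, gave 11.88 and 11.77 in KO and 11.72 and 11.94 in WT. The genotypes overlapped and the difference was -0.00, with an interval of -0.31 to 0.30. Fas, the receptor of Fas ligand, gave 6.51 and 6.86 in KO and 6.46 and 6.90 in WT, a difference of 0.01 with an interval of -0.50 to 0.51. A dimmer row that carries the symbol Fas read otherwise, with 5.46 and 5.87 in KO against 6.72 and 6.52 in WT, a difference of -0.95 (SE 0.17, adjusted p 0.0381). Its call was lost without the first KO array and without either WT array, at adjusted p of 0.0890 to 0.147, and after median centring, at 0.0526. The identifier of that dimmer row carries chromosome 17, whereas RefSeq places Fas on chromosome 19, so what it measures is uncertain.

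The ectodysplasin branch was unevenly represented. Eda2r, a receptor for a splice form of ectodysplasin, gave 7.97 and 8.07 in KO against 6.93 and 7.16 in WT. The difference was 0.97 (SE 0.12, adjusted p 0.0171), or 1.96-fold higher in KO. The adjusted p was 0.0780 without the first KO array, 0.0623 without the second KO array and 0.0774 without the first WT array, with a full range of 0.0116 to 0.0955. Its ligand Eda gave 4.54 and 4.54 in KO and 4.55 and 4.43 in WT, and its sister receptor Edar gave 4.61 and 4.66 in KO and 4.71 and 4.66 in WT. Both were near the floor, with differences of 0.05 and -0.05. Tnfrsf19, a related receptor of the skin appendages, lay at or below the floor on all arrays, with 4.62 and 4.54 in KO and 4.18 and 4.26 in WT.

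None of the receptors described next passed the test. Tnfrsf12a, the receptor of the cytokine TWEAK, gave 14.06 and 14.21 in KO against 14.52 and 14.70 in WT, with no overlap. The difference was -0.47 (SE 0.12, adjusted p 0.0814). Ltbr, the receptor for lymphotoxin heterotrimers and Tnfsf14, averaged 8.62 ± 0.37 in KO and 8.04 ± 0.05 in WT (SD, n = 2 each), and each KO array lay above each WT array. The difference was 0.59 (SE 0.19, adjusted p 0.149), and the adjusted p was 0.0493 without the second KO array, where a lone KO array is assumed to vary as the WT arrays do. Tnfrsf1b, the other TNF receptor, given here after its values were seen, had 4.81 and 5.24 in KO and 4.74 and 4.69 in WT, a difference of 0.31 (adjusted p 0.367). The 8 members above the floor on 1 to 3 arrays had differences between -0.31 and 0.31, and the 5 receptors never above it between -0.11 and 0.36.

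**Figure D3:**
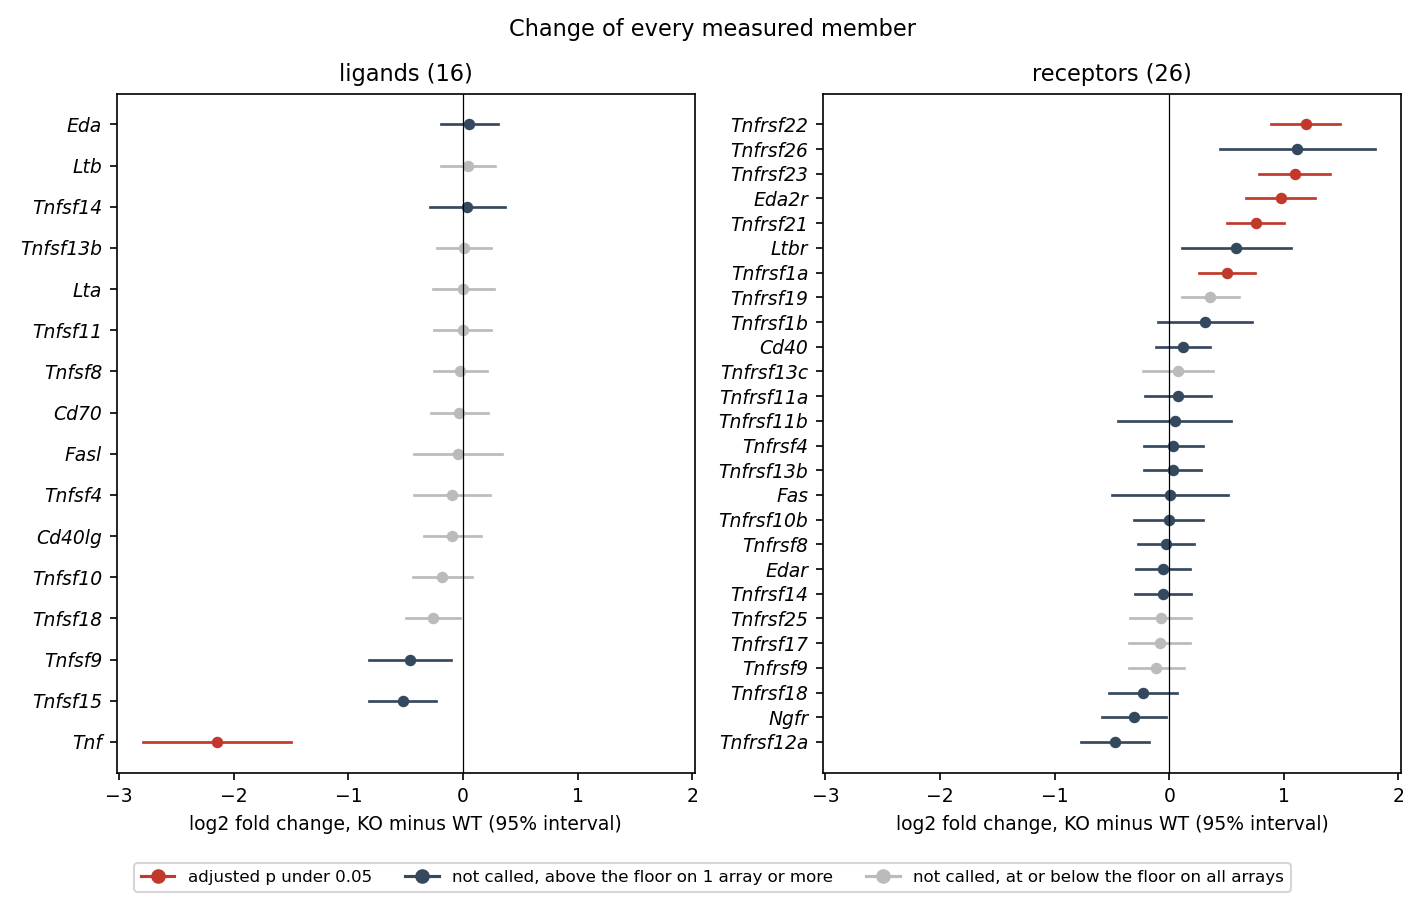
Log2 difference, KO minus WT, with its 95% interval for the 16 ligands (left) and the 26 receptors (right); colour marks members that passed the test, and grey marks members at or below the floor on all arrays. Tnf at -2.15 stands apart among the ligands, and the 5 called receptors lie between 0.50 and 1.19.

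Markers of fibroblasts and melanocytes had positive differences in KO cultures beside these receptor rises. All 7 fibroblast markers measured were higher in both KO arrays than in both WT arrays, as were 23.9% of all genes. Of the 7, 2 passed the test, Dcn by 1.68 and Vim by 2.88, where 4.12% of all genes were called higher. Over all 7, the summed linear signal was 1391 and 4087 in KO against 457 and 388 in WT. Vim, at 10.25 and 11.92 in KO against 8.38 and 8.04 in WT, supplied most of it. Col3a1 and Lum lay at or below the floor on all arrays. All 8 melanocyte markers had a positive difference, 1 of them called, and their sum was 5361 and 2282 in KO against 1527 and 1086 in WT. Of 6 endothelial markers 4 lay at or below the floor, Cdh5 among them, and Kdr was higher by 3.60 (adjusted p 0.00508). Pecam1 was above the floor on 1 array, with 4.37 and 4.26 in KO and 4.60 and 4.66 in WT, a difference of -0.32 (adjusted p 0.141). The part of these cells in the receptor differences was not tested. In bulk cultures, fewer cells of a type and less RNA per cell cannot be told apart.

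Ligands and receptors were then read as pairs. Of 26 textbook pairs, 22 had a row for both partners. Tnfsf10 was paired with Tnfrsf10b only, so Tnfrsf22 and Tnfrsf23 stand in none of the pairs. Both partners lay above the floor on all 4 arrays in 2 pairs, Tnf with Tnfrsf1a and Tnfsf14 with Ltbr. In 8 pairs the receptor lay above it on all arrays and the ligand on none, among them Fasl with Fas and Tnfsf10 with Tnfrsf10b. The reverse held for 2 pairs, Tnfsf15 with Tnfrsf25 and Tnfsf9 with Tnfrsf9. Both partners were called in 1 pair, with Tnf lower and Tnfrsf1a higher in KO.

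Below the receptors, 43 genes of the signalling machinery were measured, and 7 fell, 1 rose and 35 did not pass. The lower share was 16.3%, where 3.13% of all genes and 5.56% of those above the floor were lower, and the median difference was -0.11. These genes were listed with earlier results of these data known, so the share only describes them. Tnfaip3, a ubiquitin-editing enzyme that restrains NF-kB, gave 9.19 and 9.37 in KO against 11.53 and 11.62 in WT. The difference was -2.30 (SE 0.11, adjusted p 0.00294), or 4.92-fold lower, and the call held in all 12 alternatives and with crossed replicate pairs. Tnip1, which works with Tnfaip3, fell by 1.13 (adjusted p 0.0194). Ikbke, an IKK-related kinase, fell by 1.75 (adjusted p 0.00523).

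Mlkl, the pore-forming executor of necroptosis, gave 9.03 and 9.11 in KO against 10.58 and 10.77 in WT, a difference of -1.61 (SE 0.11, adjusted p 0.00523). Its kinase Ripk3, given here after its values were seen, had 10.83 and 11.26 in KO and 10.52 and 10.34 in WT, a difference of 0.62 (adjusted p 0.107). Traf2 and Birc3, the adaptor and ubiquitin ligase of the TNF receptor complex, fell by 0.78 (adjusted p 0.0277) and fell by 0.65 (adjusted p 0.0423). Adam10, a metalloproteinase that sheds membrane proteins, fell by 0.51 (adjusted p 0.0381).

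Timp3, an inhibitor of the TNF-shedding enzyme Adam17, was the 1 gene of this list that rose. It gave 7.19 and 6.89 in KO against 5.84 and 5.92 in WT, a difference of 1.16 (SE 0.13, adjusted p 0.0159). The calls of Tnfaip3, Ikbke and Mlkl held without any 1 array. Those of Timp3 and Tnip1 were lost without the first KO array and without either WT array, at adjusted p of up to 0.0838. Those of Traf2, Birc3 and Adam10 were lost without each array in turn, at adjusted p of up to 0.189.

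Of 25 genes known to be induced by TNF through NF-kB, 9 fell, 0 rose and 16 did not pass, with a median of -0.50. At an unadjusted p under 0.05, 13 were lower and 5 higher. The lower share was 36.0%, against 3.13% of all genes and 5.56% of those above the floor, where 21 of the 25 lay. This list was chosen with earlier results of these data known, so its share only describes the genes listed. Of the list and the signalling machinery, 3 genes, Birc3, Tnfaip3 and Traf1, stand in both. Csf2, which encodes the growth factor GM-CSF, gave 5.17 and 5.77 in KO against 8.81 and 8.67 in WT. The difference was -3.27 (SE 0.21, adjusted p 0.00508), or 9.67-fold lower. Mmp9, a gelatinase, fell by 4.60 (adjusted p 0.00754).

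Among the neutrophil chemokines of the list, Cxcl2 fell by 2.36 (adjusted p 0.00508) and Cxcl1 fell by 1.41 (adjusted p 0.0232). Irf1, an interferon-responsive transcription factor, fell by 1.11 (adjusted p 0.0192). With the mean of all its rows, the difference of Irf1 was -0.66 (adjusted p 0.0411). The NF-kB family genes Bcl3 and Nfkb2 fell by 0.96 (adjusted p 0.0173) and fell by 0.61 (adjusted p 0.0277). The calls of Csf2, Cxcl2 and Mmp9 held without any 1 array. Those of Bcl3, Cxcl1 and Irf1 were lost without the first KO array and without either WT array, at adjusted p of up to 0.0888, and that of Nfkb2 without each array in turn, at up to 0.155.

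The list did not move as a block. Vcam1, an adhesion molecule given here after its values were seen, had 7.20 and 8.79 in KO against 5.86 and 5.84 in WT, a difference of 2.15 (adjusted p 0.0736). Ccl2, a monocyte chemokine, also given after its values were seen, had 7.57 and 8.76 in KO and 7.20 and 6.35 in WT, a difference of 1.39 (adjusted p 0.162). For both the second KO array was the highest of the 4. That array also had the highest fibroblast sum, set mostly by Vim. Its macrophage and monocyte sum, set mostly by Cd68 and Cd14, was the highest as well. The part of either cell type in these values was not tested. Nfkbia, the NF-kB inhibitor, likewise given after its values were seen, had a difference of 0.25 (adjusted p 0.208), and Il6 and Il1b lay at or below the floor on all arrays.

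**Figure D4:**
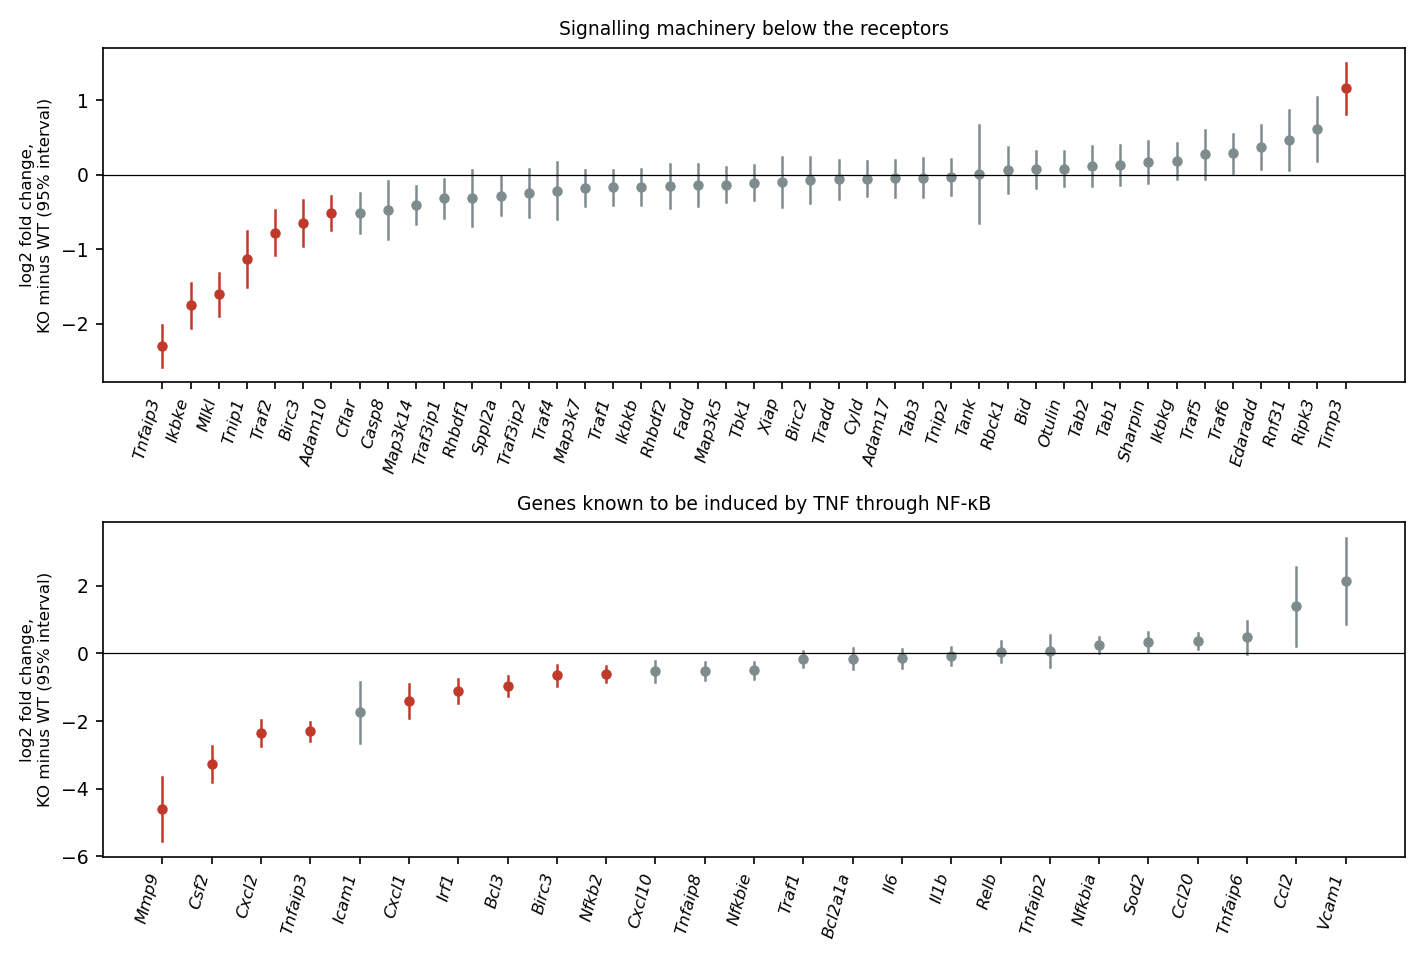
Log2 difference, KO minus WT, of each measured gene of the signalling machinery and of the genes known to be induced by TNF through NF-kB, with 95% intervals and called genes in red. Tnfaip3 lies lowest in the upper panel at -2.30, Mmp9 lies lowest in the lower panel at -4.60, and Timp3 at 1.16 is the 1 called gene above 0.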

How the data were processed

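RNA of 4 keratinocyte samples was measured on Affymetrix MTA-1_0 arrays. Each deposited value is a log2 signal of 1 transcript cluster, named SST-RMA at gene level in the labels. The submitters' processing notes name Affymetrix Expression Console and RMA, without versions. RMA equalises the arrays' distributions, so a shift shared by most genes is removed, and because the SST transform stretches signals (maximum 19.7), folds may not equal plain RMA folds.

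The 30604 rows with 1 gene symbol, of 72688, were fitted with limma 3.58.1 (lmFit, eBayes) in R 4.3.3, KO minus WT and no block. Two-sided p-values were adjusted by Benjamini-Hochberg, with calls at 0.05. The fit was also run on simulated data with 200 changed rows. Their noise was drawn from limma's own variance model, so that run cannot check the model. Symbols were updated through RefSeq GRCm38.p6 identifiers (22951 rows matched, 833 updated). Promoter windows came from the same RefSeq release. Precision is limited by the number of arrays.

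The members and lists were chosen with earlier results of these data known. Named members were those called, those at least 2-fold different without overlap, the brightest 3 ligands and 6 receptors, Tnf, Tnfsf10, Fas, Tnfrsf1a, Tnfrsf10b and the ectodysplasin branch, and from each list the called genes, at most 8. Others are marked as given after their values were seen. Not so marked are Ltb and Lta, the neighbours of Tnf, the cell type markers and the rows that name several genes. Alternatives covered normalization, rows tested, moderation, a replicate block, the floor, the threshold and each array left out. Replicate numbers do not tie arrays to shared animals, since plates were combined at random.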

Additional observations from a re-analysis of the deposited data

How the results depend on the processing

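No called result changed direction under any alternative run. Eda, Fas, Tnfrsf10b and Tnfsf14, all uncalled, took either sign. Fas stood at -0.47 (adjusted p 0.153) with the mean of both its rows, against 0.01. With every row of the table tested, 0 of 42 members passed (limma, 12 at an unadjusted p under 0.05). That is 0 ligands, 0 receptors and 0 in each receptor class. Tnfaip3, which stands in both lists, was the 1 gene that passed in each. In all, 74 rows passed against 2209, and Slc2a1 stood at -1.28 with an adjusted p of 0.0648. That setting adds control rows and rows without a gene of their own to the adjustment. Without 1 array in turn, 0 to 4 members passed, 0 to 1 ligands, 0 to 3 receptors, 0 to 2 decoy receptors, 0 death-domain receptors, 0 to 1 other receptors, 3 to 5 signalling genes, 4 to 9 TNF-induced genes and 314 to 1214 rows, and Slc2a1 ran from -1.35 to -1.21 (-1.32 without the first KO array). Death-domain receptors called were 1, against 2, after quantile normalization, with a variance trend, with the replicate block and with the crossed pairing. With rows under the median mean left out, 2 ligands passed, Tnf and Tnfsf15. At an adjusted p of 0.1 there were 2 ligands, 2 other receptors, 15 TNF-induced genes and 3896 rows. Same-numbered arrays deviated oppositely (correlation -0.23), so a crossed pairing was added after seeing the data: 6 members were called with it, Tnfrsf26 among them and Tnfrsf1a not, and 5 with the replicate block, which lost Tnfrsf1a. Against 0 in the report, 1 TNF-induced gene was called higher with the replicate block, with the crossed pairing, with rows under the median mean left out and without either KO array, and 2 at an adjusted p of 0.1. With the 99th percentile as the floor, 18 members, against 26, lay above it on at least 1 array. Where no construction is named, the cause was not tested.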

Other observations

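Rows that name a member together with other genes belong to no count above. The row shared by Tnfsf12, Tnfsf13 and their read-through, ligands of Tnfrsf12a and of B cell receptors, gave log2 signals of 4.92 and 4.77 in KO and 4.89 and 4.80 in WT, and the genotypes overlapped. The row of Cd27, a costimulatory receptor of T cells, with a microRNA gave 3.94 and 3.83 in KO and 4.07 and 3.95 in WT. A dimmer row of Tnfrsf19 gave 3.68 and 3.72 in KO against 3.45 and 3.44 in WT, a difference of 0.25 (limma, adjusted p 0.191), the same direction as its brighter row.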
